A study of Mus musculus with 64 samples.

Results

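The acute effect of risperidone on the prefrontal cortex (PFCx) was taken from 12 of the 64 RNA-seq libraries: the 4 PFCx libraries of risperidone-treated mice and the 8 PFCx libraries of saline-treated mice. Members were chosen by their labelled tissue, drug and sample set. The mice were adult C57BL/6N males of 8 to 10 weeks. Each received 1 intraperitoneal injection, of risperidone at 0.5 mg/kg in saline brought into solution with dilute hydrochloric acid or of saline, and was killed 2 h later; acid is not mentioned for the saline groups, so drug and acid cannot be told apart against saline. Saline was run in 2 sample sets of 4 libraries, and risperidone belongs to set I together with haloperidol (1 mg/kg). The PFCx dissected from slices held the cingulate, prelimbic and infralimbic areas and part of the dorsal peduncular area. Levels are FPKM, reads scaled to transcript length and library size, summed over the annotated transcripts of a gene; differences are risperidone minus saline on the scale of log2(FPKM + 1). Nothing says whether libraries of the 2 regions came from the same animals, and p-values measure only the spread between these libraries, which may be technical.

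Risperidone is an antipsychotic that blocks dopamine D2 and serotonin 5-HT2A receptors and also binds adrenergic and histamine H1 receptors. Prefrontal pyramidal cells carry 5-HT2A and adrenergic receptors, and monoamine input to this region sets how strongly they fire. Changes in firing and in second messengers are followed within minutes to hours by induction of immediate early genes, while stress hormone, feeding state and blood glucose are read out by other fast-responding genes such as those bound by the glucocorticoid receptor.

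The estimated aligned bases were 2.17 to 2.95 gigabases in the risperidone libraries, 1.52 to 2.78 in saline set I and 1.61 to 2.39 in saline set II. The saline sets stood apart: 3407 of 36807 tested genes, 9.26%, differed between them (limma, adjusted p under 0.05), so calls were made against all 8 saline libraries and against the 4 libraries of set I. The summed FPKM of 10 excitatory cortical neuron markers was 457 to 489 after risperidone, 419 to 484 in saline set I and 379 to 493 in set II; all 10 were detected. In bulk tissue, a change in the number of cells of a type and a change in RNA per cell cannot be told apart.

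At 2 h after risperidone the PFCx showed more RNA from fast-responding genes of 3 kinds: activity-induced genes (Fos, Arc, Junb, Dusp5), glucocorticoid-responsive genes (Tsc22d3, Fkbp5, Per1, Nfkbia) and genes of fuel handling (Ucp2, Txnip, Klf15, Slc2a1). The genes that were lower were led by the transcription factor gene Klf6 and the potassium channel gene Kcnj2. Of the 84 lower genes 42 were coding (50%), and of the 105 higher genes 92 (87.6%). The share was 51.8% over all genes tested and 74.1% over those with a mean of at least 1 FPKM. Against all saline libraries 105 genes were higher (0.285% of those tested) and 84 lower (0.228%); their median differences were 0.46 and -0.38. Against saline set I alone 45 were higher (0.122%) and 15 lower (0.0408%). Of the 105 and 84, 41 and 12 were also called against set I; the remaining ones had the same sign and an unadjusted p under 0.05 there. As the set I libraries enter both comparisons, this is no independent repeat. With the 12 libraries alone in the fit 77 genes passed, and with risperidone and set I alone 8. Of the 84 lower genes 13 also differed between the saline sets, and 1 of the 105 higher genes did.

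The separation by library was wide for part of these genes. All 4 risperidone libraries lay above all 8 saline libraries for 293 tested genes (0.796%) and below them for 273 (0.742%); 86 of the 105 higher and 59 of the 84 lower genes were among these. For a single gene such a split has a two-sided exact permutation p of 0.00404, the smallest that 4 against 8 libraries allow, and full separation from set I has 0.0286, the smallest for 4 against 4.

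**Figure D1:**
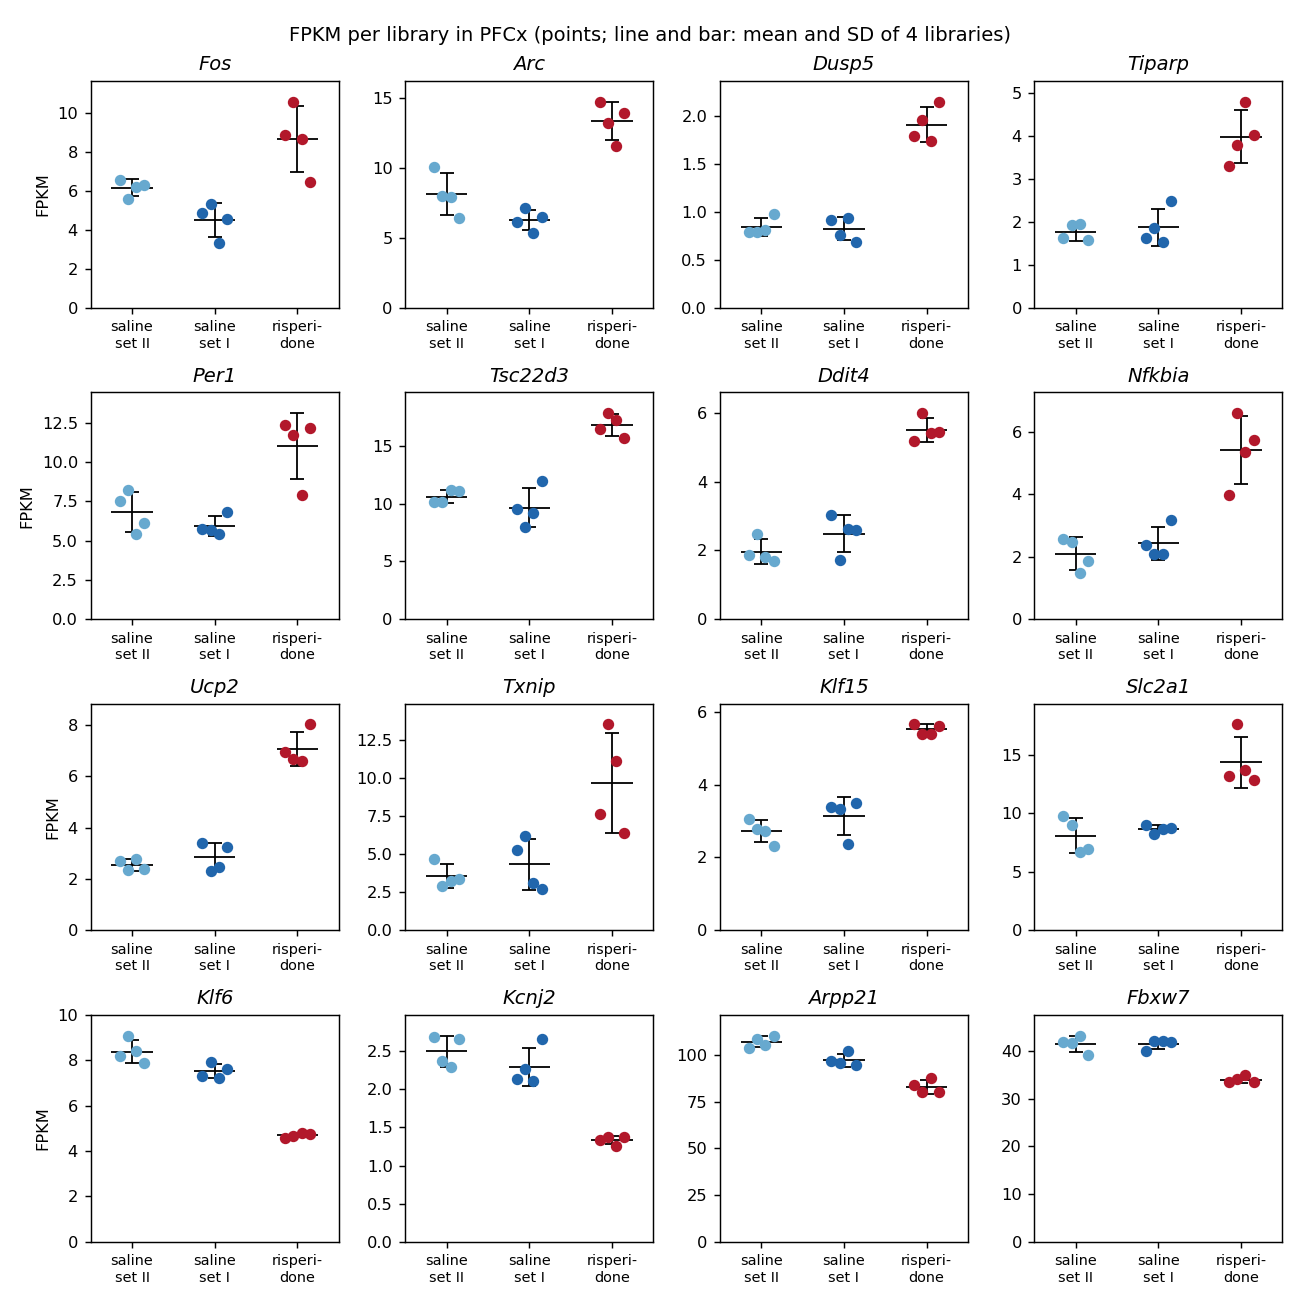
FPKM (vertical axes, from 0) of 16 genes in each PFCx library of saline set II, saline set I and risperidone, with the mean and SD of each group of 4. The red risperidone points lie above every saline point in 10 of the 12 genes of the upper 3 rows, the exceptions being Fos and Per1, and below every saline point in the 4 genes of the bottom row. Apart from Fos, Arc and Per1, these genes were named by a rule that required no overlap with saline.

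Immediate early transcription factors are switched on by calcium and cAMP signals without new protein synthesis. Of 26 on the list, 6 rose against saline and 1 fell, beside 0.285% and 0.228% of all genes. The counts were the same against set I, beside 0.122% and 0.0408%. The median difference of the 26 was 0.24, beside 0.0014 over all genes. All tested genes had a median level of only 0.674 FPKM. With the filter raised to a mean of at least 1 FPKM, 140 of 15695 genes were higher and 133 lower against saline. These shares are larger than those over all genes, and the median difference there was 0.012. This list and those below were chosen with earlier results of these data known, so their counts and medians are a description and no test. Fos, a partner in the AP-1 dimer, was 8.87, 10.6, 8.68 and 6.48 FPKM after risperidone and ranged from 3.31 to 6.59 with a median of 5.46 in saline. The lowest risperidone library thus overlapped the saline range by set II only, since set I reached 5.34. The difference was 0.61 ± 0.13 (SE; limma adjusted p = 0.023), and 0.80 ± 0.13 against set I (adjusted p = 0.00489). Without risperidone replicate 1, 2 or 3 the call against saline was lost, with differences of 0.59, 0.52 and 0.60.

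Junb, a further AP-1 subunit, was 9.87 to 12.1 FPKM in the risperidone libraries, against 2.79 to 6.80 in saline, a 2.15-fold ratio of means (difference 1.00 ± 0.17, limma adjusted p = 0.00193; 0.92 ± 0.19 against set I, adjusted p = 0.0373, a call lost without any 1 risperidone library or set I replicate 1, 2 or 3). Fosb rose by 0.58 ± 0.10 and the orphan nuclear receptor gene Nr4a1 by 0.52 ± 0.11 (limma adjusted p = 0.00393 and 0.016); Nr4a1 lost its call without risperidone replicate 1, 2 or 4. Against set I they differed by 0.61 and 0.60 (limma adjusted p = 0.023 and 0.0344), and both calls were lost without risperidone replicate 2, 3 or 4 or set I replicate 3, that of Fosb also without set I replicate 1 and that of Nr4a1 without risperidone replicate 1 or set I replicate 2. Csrnp1 rose by 0.53 ± 0.09, and Klf10, a zinc finger repressor, had 7.21 to 8.34 FPKM against 4.78 to 5.75 in saline (limma adjusted p = 0.0019 and 3.67e-05); against set I these differed by 0.58 and 0.52 (adjusted p = 0.00618 and 0.000691). Egr1, which many neuronal stimuli induce, had 13.3 ± 1.26 FPKM (SD, n = 4) beside 12.5 ± 1.65 in saline (n = 8), a difference of 0.09 ± 0.10 (limma adjusted p = 0.733). Npas4, a factor tied to calcium entry, had 2.74 ± 0.325 beside 2.203 ± 0.585 FPKM (limma adjusted p = 0.353).

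Klf6, a Krüppel-like zinc finger factor, went the other way and had the lowest p of any lower gene. It was 4.57, 4.67, 4.80 and 4.76 FPKM after risperidone and 7.23 to 9.09 with a median of 7.91 in saline. No libraries overlapped, which the rule for naming the leading genes required, and the 4 risperidone values lay close together. The difference was -0.65 ± 0.06 against saline and -0.58 ± 0.07 against set I (limma adjusted p = 1.17e-06 and 5.44e-05).

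Of 36 activity-induced effector genes, 13 rose against saline and 8 against set I, beside 0.285% and 0.122% of all genes, and none fell. Their products act at synapses or curb the signals that induced them. The list's median difference was 0.25. Homer1 and Bdnf, both on this list, differed from saline by 0.02 and 0.11 and did not pass (limma adjusted p = 0.942 and 0.477). Arc, a cytoskeletal protein of dendrites that controls AMPA receptor uptake, was 14.7, 13.2, 11.6 and 13.9 FPKM after risperidone and 5.36 to 10.1 (median 6.78) in saline. All 4 lay above the saline range (difference 0.83 ± 0.15, limma adjusted p = 0.00457; 0.98 ± 0.16 against set I, adjusted p = 0.00516).

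Dual-specificity phosphatases switch off MAP kinases, and 3 of their genes rose. Dusp5, which acts on nuclear ERK, had the lowest p of all genes that rose: 1.79, 1.95, 1.74 and 2.15 FPKM against 0.689 to 0.978 (median 0.796), a ratio of 2.29 (difference 0.67 ± 0.07, limma adjusted p = 1.62e-06; 0.67 ± 0.08 against set I, adjusted p = 5.44e-05). Every risperidone library lay far above the highest saline library. Dusp6, the cytoplasmic ERK phosphatase, was 10.2, 12.5, 10.1 and 10.03 FPKM against 6.39 to 7.91 (0.51 ± 0.07, limma adjusted p = 0.000189; 0.48 ± 0.08 against set I, adjusted p = 0.00618). Dusp1 rose by 0.58 ± 0.12 against saline (limma adjusted p = 0.0133), and its difference from set I was 0.53 (adjusted p = 0.158).

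Tiparp, a mono-ADP-ribosyltransferase, was 3.31, 3.79, 4.80 and 4.03 FPKM against 1.52 to 2.49 (median 1.74), a difference of 0.82 ± 0.09 (limma adjusted p = 7.72e-06; 0.80 ± 0.10 against set I, adjusted p = 0.00029). Rasd1, a small GTPase first found as a dexamethasone-induced Ras, was 2.08 to 2.15 FPKM in the 4 risperidone libraries and 0.390 to 0.988 in saline, the widest ratio of the named effector genes at 2.76 (limma adjusted p = 2.63e-05; 0.79 ± 0.12 on the log2 scale against set I, adjusted p = 0.00109). Arl4d, an ADP-ribosylation factor-like GTPase, had 2.42 times its saline mean (difference from set I 0.84 ± 0.14, limma adjusted p = 0.00416). The kinase gene Pim3 rose by 0.70 ± 0.10 and Sik1, a salt-inducible kinase that restrains CREB coactivators, by 0.49 ± 0.08 (limma adjusted p = 0.000189 and 0.00276); against set I they differed by 0.60 and 0.50 (adjusted p = 0.0098 and 0.0256). That call of Pim3 was lost without risperidone replicate 4, and that of Sik1 without risperidone replicate 2, 3 or 4 or set I replicate 3 or 4. Gadd45b, Gadd45g, Pim1 and Apold1 rose against saline by 0.74, 0.71, 0.30 and 0.30, and none of them was called against set I. The calls of Dusp1, Gadd45g, Pim1 and Apold1 against saline were each lost when 1 of several risperidone libraries was left out.

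Promoter sequences are shown for 3 of these genes that rose, each with a match to the cAMP response element or the CArG box. Klf6 is shown as the leading gene that fell. Each window runs from 250 bases before to 50 after the annotated gene start, 5′ to 3′ on the gene's strand (RefSeq, GRCm38.p6); capitals mark matches to the cAMP response element TGACGTCA, the AP-1 site TGANTCA, the glucocorticoid response element GNACANNNTGTNC, the forkhead site GTAAACA, the E-box CACGTG, the GC box GGGCGGGG or the CArG box, searched on both strands. Neighbouring matches may share bases, and each was counted for its own motif. The windows of Fos, Fosb, Junb and Nr4a1 held no match to the cAMP element, the AP-1 site or the CArG box. Dusp1 lies at chr17:26508423-26508722 (minus strand), with the cAMP element at -143 and an E-box at -126; Arl4d at chr11:101665291-101665590 (plus), with the cAMP element at -26; Dusp5 at chr19:53528895-53529194 (plus), with a GC box at -96 and adjoining CArG boxes at -82 and -72; and Klf6 at chr13:5861239-5861538 (plus), with an E-box at -43.
Dusp1: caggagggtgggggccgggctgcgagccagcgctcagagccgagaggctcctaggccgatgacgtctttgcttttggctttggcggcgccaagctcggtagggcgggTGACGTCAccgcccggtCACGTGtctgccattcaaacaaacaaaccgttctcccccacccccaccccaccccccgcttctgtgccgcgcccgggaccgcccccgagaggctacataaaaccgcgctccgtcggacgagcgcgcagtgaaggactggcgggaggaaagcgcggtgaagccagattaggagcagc
Arl4d: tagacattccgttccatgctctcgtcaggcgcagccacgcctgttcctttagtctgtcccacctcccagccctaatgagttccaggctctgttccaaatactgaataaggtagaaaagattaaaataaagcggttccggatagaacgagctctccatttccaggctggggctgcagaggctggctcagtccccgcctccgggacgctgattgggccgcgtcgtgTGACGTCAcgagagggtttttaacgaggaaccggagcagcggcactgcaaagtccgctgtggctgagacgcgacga
Dusp5: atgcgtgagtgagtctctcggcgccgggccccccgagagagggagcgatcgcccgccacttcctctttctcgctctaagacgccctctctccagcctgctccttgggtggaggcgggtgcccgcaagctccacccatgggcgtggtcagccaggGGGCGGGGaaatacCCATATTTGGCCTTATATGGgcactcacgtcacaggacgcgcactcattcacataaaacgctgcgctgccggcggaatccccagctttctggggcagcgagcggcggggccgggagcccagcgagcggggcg
Klf6: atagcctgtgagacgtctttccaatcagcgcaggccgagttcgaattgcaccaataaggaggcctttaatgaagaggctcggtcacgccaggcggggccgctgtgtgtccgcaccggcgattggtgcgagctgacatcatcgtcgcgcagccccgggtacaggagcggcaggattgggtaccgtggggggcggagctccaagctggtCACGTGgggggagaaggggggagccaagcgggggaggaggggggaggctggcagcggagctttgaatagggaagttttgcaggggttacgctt

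A promoter was in the table for 71 of the 105 higher genes, 34 of the 84 lower genes and 16493 of all genes tested. The cAMP element was in 4 of the 71 higher and 1 of the 34 lower genes, beside 2.73% of the tested ones and 1.79% of all 32851 promoters. E-boxes were in 16 of 71 (22.5%) and 4 of 34 (11.8%), beside 9.61% of tested genes and 7.15% of all promoters; the GC box was in 37 (52.1%) and 13 (38.2%), beside 27.6% and 17.6%. The AP-1 site was in 4 higher and 4 lower genes (tested 7.92%, all promoters 7.81%), the forkhead site in 4 and 0 (3.32%, 3.65%), the glucocorticoid element in 1 and 0 (0.467%, 0.475%) and the CArG box in 1 and 1 (1.74%, 1.63%). A gene with several promoters counted once. A match describes letters in this window, not binding.

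Glucocorticoid-responsive genes are bound and switched on by the receptor for corticosterone, the adrenal stress hormone of mice. Of 32 on the list, 11 rose against saline and 6 against set I, beside 0.285% and 0.122% of all genes, and none fell. The median difference was 0.36, the largest of the 15 gene lists, and 0.33 against set I. Above all saline libraries lay 13 members, beside 0.796% of all genes. As the lists were chosen with earlier results of these data known, this ranking is a description and no test. Tsc22d3, which encodes the anti-inflammatory leucine zipper GILZ, was 16.5, 17.8, 17.3 and 15.7 FPKM against 7.95 to 11.9 (median 10.1), a difference of 0.69 ± 0.09 (limma adjusted p = 4.24e-05) and 0.76 ± 0.10 against set I (adjusted p = 0.00029). Fkbp5, a co-chaperone that dampens the receptor itself, was 6.10, 7.37, 8.05 and 6.17 against 3.35 to 4.96 FPKM (0.63 ± 0.11, limma adjusted p = 0.00276; 0.67 ± 0.13 against set I, adjusted p = 0.0155, lost without risperidone replicate 2 or 3 or set I replicate 3 or 4). Both genes separated the groups without overlap, which for Tsc22d3 the rule for naming the leading genes required.

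Nfkbia, the NF-κB inhibitor IκBα and a known receptor target, was 3.97, 6.60, 5.36 and 5.74 FPKM against 1.47 to 3.18 (median 2.22), a difference of 0.98 ± 0.12 (limma adjusted p = 2.29e-05; 0.90 ± 0.13 against set I, adjusted p = 0.00109). It was the only 1 of 17 NF-κB pathway genes to pass, and that list's median was 0.0090. Ddit4, the stress-induced mTORC1 inhibitor REDD1, was 5.20, 6.01, 5.42 and 5.45 FPKM against 1.71 to 3.03, 2.48 times the saline mean (difference 1.03 ± 0.12, limma adjusted p = 1.60e-05; 0.91 ± 0.13 against set I, adjusted p = 0.00102). Sox8, a glial transcription factor, rose by 0.65 ± 0.10 and Klf9 by 0.31 ± 0.06 (limma adjusted p = 0.00144 and 0.0125); the call of Sox8 against set I (adjusted p = 0.0344) was lost without risperidone or set I replicate 1, 3 or 4. Errfi1, Arrdc2, Angptl4 and Rhob rose by 0.29, 0.46, 0.68 and 0.54 against saline; these and Klf9 were not called against set I. Errfi1 and Arrdc2 lost their call without any 1 risperidone library, Angptl4 without replicate 1, 2 or 4 and Klf9 without replicate 4.

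Sgk1, a serum- and glucocorticoid-induced kinase, was 15.7, 17.7, 17.8 and 20.8 FPKM after risperidone and 9.69 to 15.6 in saline. Its 4 libraries lay above all saline libraries, yet the difference of 0.41 ± 0.10 did not pass (limma adjusted p = 0.0516; 0.0931 against set I). Among its 13 transcripts, ENSMUST00000020145 was 4.40, 6.42, 5.74 and 6.33 FPKM after risperidone against means of 1.69 ± 1.08 in saline set I and 4.16 ± 1.22 in set II (SD, n = 4 each). This transcript, described after its values were seen, was called against set I (difference 1.40, limma adjusted p = 0.0131) and not against all saline (0.90, adjusted p = 0.186). The other tested Sgk1 transcripts, and those of Homer1 and Bdnf added in the same step, gave no call in either comparison.

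Circadian clock genes contributed 2 higher calls among 19, beside 0.285% of all genes. These were Per1 and Bhlhe40, both of which also respond to stimuli outside the clock. Per1 was 12.4, 11.7, 7.92 and 12.2 FPKM against 5.41 to 8.23 (median 5.92); replicate 3 lay inside the saline range and the others above it. Its difference was 0.70 ± 0.15 (limma adjusted p = 0.0181) and 0.78 ± 0.17 against set I (adjusted p = 0.0473). Without replicate 1, 2 or 4 neither call held, the differences from saline being 0.64, 0.67 and 0.65. Bhlhe40, a repressor that acts on E-boxes, rose by 0.40 ± 0.09 against saline (limma adjusted p = 0.041) and was not called against set I or without any 1 risperidone library. The list's median was 0.13.

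Of 21 fasting and insulin-response genes 7 rose against saline and 5 against set I, beside 0.285% and 0.122% of all genes. None fell, and the median difference was 0.19. Ucp2, a mitochondrial carrier linked to use of fatty acids and to ghrelin action in neurons, was 6.95, 6.68, 6.58 and 8.02 FPKM against 2.30 to 3.40 (median 2.57), a ratio of 2.62 and a difference of 1.13 ± 0.13 (limma adjusted p = 1.07e-05; 1.08 ± 0.15 against set I, adjusted p = 0.000506). Txnip, an arrestin-domain protein that limits glucose uptake, was 7.64, 13.5, 11.1 and 6.37 FPKM against 2.72 to 6.19 (median 3.30); its lowest risperidone library lay just above the highest saline one (difference 1.098 ± 0.17, limma adjusted p = 0.000977), and against set I the call (adjusted p = 0.021) was lost without risperidone replicate 2 or 3 or set I replicate 3 or 4.

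Klf15, a regulator of amino acid and fat use in fasting, was 5.65, 5.39, 5.39 and 5.61 FPKM against 2.31 to 3.49 (0.74 ± 0.10, limma adjusted p = 9.11e-05; 0.66 ± 0.11 against set I, adjusted p = 0.00489). Slc2a1 encodes GLUT1, which carries glucose across the blood-brain barrier and into astrocytes, and was 13.2, 17.6, 13.7 and 12.8 FPKM against 6.70 to 9.78 (0.71 ± 0.10, limma adjusted p = 0.000341; 0.65 ± 0.12 against set I, adjusted p = 0.0103, lost without risperidone replicate 2). Irs2, an adaptor of the insulin receptor, rose by 0.52 ± 0.11 against saline (limma adjusted p = 0.0269), but it did not pass without any 1 risperidone library or against set I (adjusted p = 0.147). Angptl4 and Ddit4 stand on this list as well. Zfp189, a zinc finger gene on none of the lists, was among the 15 leading higher genes: 3.08, 3.59, 3.26 and 3.16 FPKM against 0.899 to 1.87 (0.90 ± 0.10, limma adjusted p = 1.60e-05; 0.83 ± 0.12 against set I, adjusted p = 0.000919).

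The promoters of 2 of these fuel-handling genes are printed for their several elements; Irs2 also held an E-box at -44 and a GC box at -85, and Slc2a1 and Ddit4 held GC boxes at -22 and -232. Klf15 at chr6:90462326-90462625 (plus strand) held E-boxes at -228, -172 and -3 and a GC box at -91, and Txnip at chr3:96557707-96558006 (plus) held the only glucocorticoid element among the higher genes' promoters, at -172, with a forkhead site at -121 and a GC box at -232.
Klf15: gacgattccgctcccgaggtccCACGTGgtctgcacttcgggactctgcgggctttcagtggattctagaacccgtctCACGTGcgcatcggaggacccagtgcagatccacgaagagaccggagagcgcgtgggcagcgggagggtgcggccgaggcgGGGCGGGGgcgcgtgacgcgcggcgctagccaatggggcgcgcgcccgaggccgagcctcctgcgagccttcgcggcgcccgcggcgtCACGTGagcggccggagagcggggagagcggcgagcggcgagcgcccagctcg
Txnip: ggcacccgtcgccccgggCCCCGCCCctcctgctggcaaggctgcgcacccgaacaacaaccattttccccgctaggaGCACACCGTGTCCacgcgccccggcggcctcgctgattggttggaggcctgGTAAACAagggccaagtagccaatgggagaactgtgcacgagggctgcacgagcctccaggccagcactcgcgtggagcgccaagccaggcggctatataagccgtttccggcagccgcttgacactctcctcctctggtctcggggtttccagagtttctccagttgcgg

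**Figure D2:**
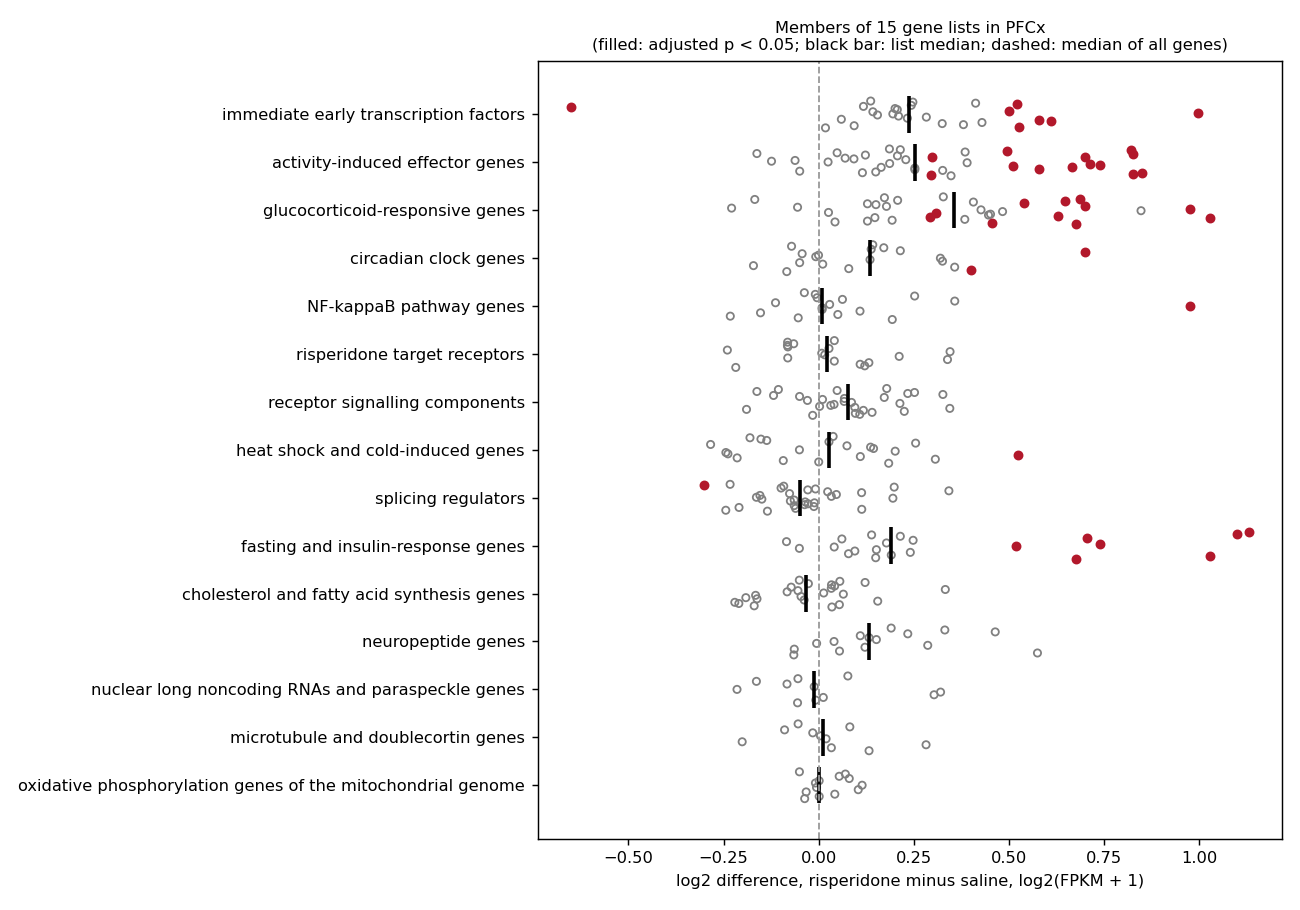
Difference of each tested member of 15 gene lists in PFCx, risperidone minus 8 saline libraries (horizontal axis, log2(FPKM + 1)); filled points passed adjusted p under 0.05, black bars are list medians and the dashed line is the median of all genes. The medians of the glucocorticoid-responsive (0.36), activity-induced effector (0.25), immediate early (0.24) and fasting (0.19) lists lie farthest to the right.

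The genes for the receptors that risperidone binds gave no calls: of 19 on the list 18 were tested, and none passed in either comparison, with a median difference of 0.021. Htr2a, the 5-HT2A receptor gene, was 4.83, 4.71, 4.31 and 3.83 FPKM after risperidone and 3.59 to 5.53 in saline (difference -0.08 ± 0.09). Drd2 was 0.216, 0.489, 1.32 and 0.783 FPKM, inside the saline range of 0.184 to 1.66 (0.21 ± 0.17). Drd1, Drd3 and Drd5 differed by -0.08, 0.02 and 0.01, and Drd4 was under the expression filter at 0.121 FPKM beside 0.0892 in saline. A p above the threshold does not show that levels were equal.

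Among the other receptor genes, Hrh1 (histamine H1) was 5.84, 5.42, 5.06 and 5.25 FPKM against 2.80 to 5.16 in saline, a difference of 0.34 ± 0.12 (limma adjusted p = 0.171). Adra2c, an adrenergic autoreceptor gene, had 1.75 ± 0.237 FPKM beside 1.18 ± 0.249 (difference 0.34 ± 0.09, limma adjusted p = 0.0851). Adra1a and Htr1a had differences of -0.22 and -0.24 (limma adjusted p = 0.166 and 0.155), and Adra1b, Adra1d, Adra2a, Adra2b, Htr1b, Htr1d, Htr2b, Htr2c and Htr7 lay between -0.08 and 0.13. None of 28 tested genes for G proteins, kinases and other signalling components passed (median 0.077).

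The remaining lists gave few calls. Of 21 heat shock and cold-induced genes, Dnajb5, a DNAJ co-chaperone, rose (18.8 to 21.99 FPKM against 11.6 to 17.3; difference 0.52 ± 0.11, limma adjusted p = 0.0264). Of 30 splicing regulators, Tra2a fell (7.60 to 9.94 FPKM against 10.7 to 12.7; -0.30 ± 0.07, limma adjusted p = 0.0365), and 8 of the 30 had a positive difference (median -0.05). Neither passed against set I, and each lost its call without risperidone replicate 1, 2 or 3. None passed among 24 cholesterol and fatty acid synthesis, 15 neuropeptide, 11 nuclear long noncoding, 10 microtubule and doublecortin and 13 mitochondrially encoded genes, whose medians were -0.03, 0.13, -0.01, 0.01 and 0.0011.

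Of the cell type markers in 12 lists, C1qb and Slc2a1 passed, both higher, and no marker was at 0 in all libraries. C1qb, a complement gene of microglia, was 9.12, 9.05, 9.45 and 7.87 FPKM against 5.27 to 7.87 (0.42 ± 0.09, limma adjusted p = 0.0328); against set I it was not called (adjusted p = 0.17), nor against saline without risperidone replicate 1, 2 or 3. The 8 microglial markers summed to 35.2 to 40.1 FPKM after risperidone, 29.8 to 37.7 in set I and 28.7 to 32.01 in set II. Of the 8, 2 lay above all saline libraries, beside 0.796% of all genes. A positive difference from saline was found for 4 of the 8, with the same count against set I. The 8 endothelial markers, Slc2a1 among them, summed to 34.9 to 39.4, 30.8 to 34.9 and 29.5 to 35.6, with 1 above all saline libraries. In this sum Slc2a1 alone had means of 14.3 FPKM after risperidone, 8.67 in set I and 8.10 in set II. A positive difference was found for 4 of the 8 against saline (median 0.0067) and 5 against set I (median 0.057). Oligodendrocyte markers summed to 118 to 201, 155 to 206 and 150 to 208, and astrocyte markers to 303 to 336, 295 to 318 and 289 to 324. The part of these cells in the results was not tested. Markers of striatal spiny neurons could come from neighbouring tissue. They summed to 42.9 to 84.0 after risperidone, 40.8 to 56.1 in set I and 45.0 to 101 in set II. Of these 10 markers, 9 had a positive difference from set I (median 0.19) and 8 from all saline (median 0.077), and none passed. Red blood cell markers summed to 72.1 to 111 after risperidone, 88.9 to 127 in set I and 38.2 to 58.3 in set II, so here the saline sets did not overlap. Their median difference was 0.36 from all saline and -0.08 from set I, with 4 and 0 of 5 positive. Of 6 meningeal fibroblast markers, 5 had a positive difference from saline (median 0.18) and 4 from set I (median 0.21), and none passed.

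Of the 84 lower genes, 42 were annotated as protein coding (50%) and 24 as TEC (28.6%), GENCODE's class for transcripts not yet verified, beside 92 (87.6%) and 3 (2.86%) of the 105 higher genes. Of all 36807 tested genes 51.8% were coding, close to the share among the lower genes, and 5.77% TEC; of the 15874 with a mean of at least 1 FPKM, a level that 72 of the 84 lower and 85 of the 105 higher genes reached, the shares were 74.1% and 3.50%. Against set I, 9 of the 15 lower genes were coding (60%) and 3 TEC (20%), and 42 of the 45 higher genes were coding. The coding genes that fell spanned a median of 41.2 kb of genome (42 genes), the coding genes that rose 10.9 kb (92), all 19029 tested coding genes with a known span 20.3 kb and the 11756 with a mean of at least 1 FPKM 26.5 kb. The long span was not seen against set I, where the 9 coding genes that fell had a median of 13.8 kb and the 42 that rose 8.09 kb. Of 42 noncoding genes that fell, 26 lay within a coding gene on the same strand, 24 of them without touching its exons. Against set I, 3 of 6 lay within a coding gene on the same strand. Of all 4024 noncoding genes tested at a mean of at least 1 FPKM, 24.6% did. This filter was not applied to the 42.

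**Figure D3:**
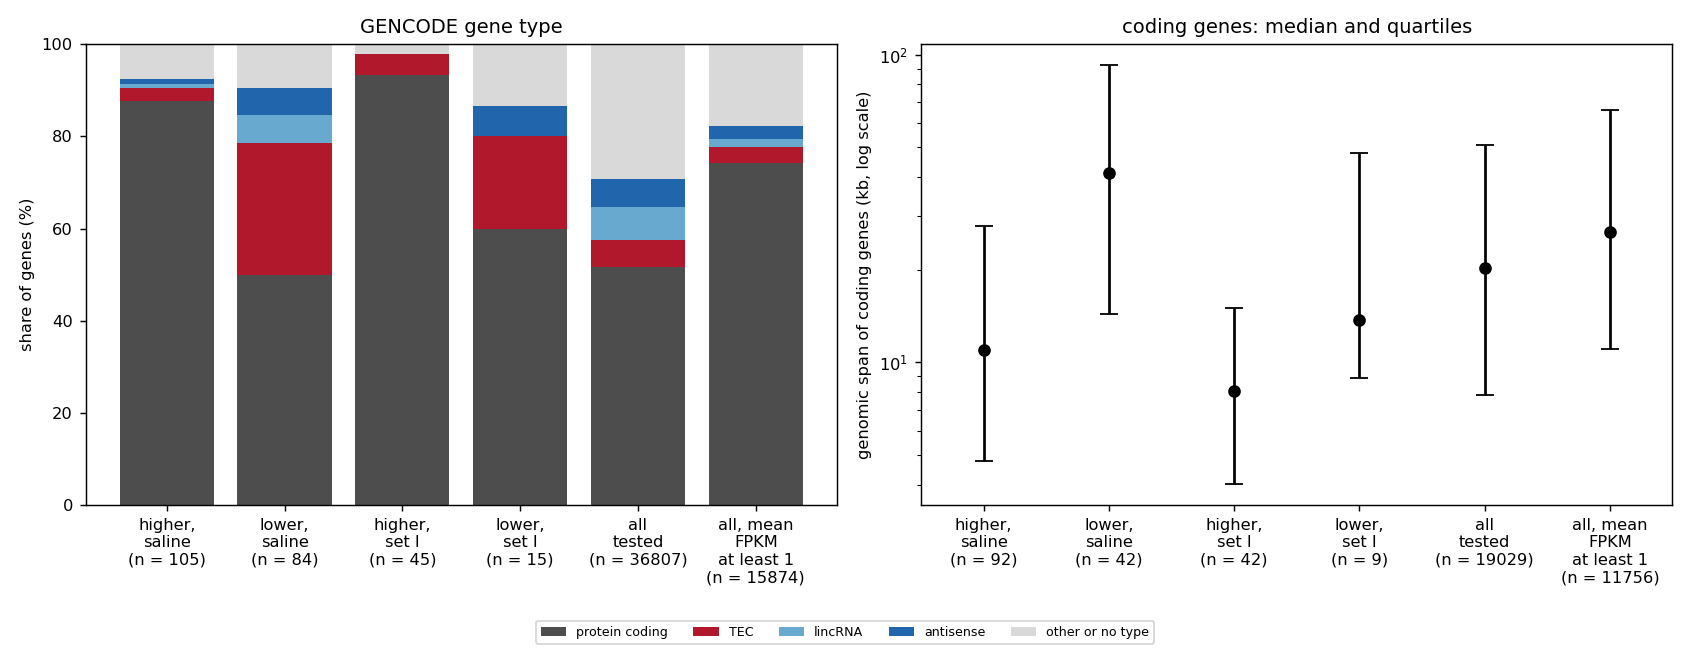
Left, share of GENCODE gene types (percent) among genes higher and lower against saline and against set I, all tested genes and those with a mean of at least 1 FPKM; right, genomic span of their coding genes (kb, log scale), median with quartiles. TEC genes make up 28.6% of the lower genes against saline and 20% against set I; median spans of the lower coding genes are 41.2 kb and 13.8 kb.

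Gm43490 (ENSMUSG00000105526, chr5:16107129-16109780) lies in an intron of Cacna2d1, a calcium channel subunit gene, and was 0.642, 0.758, 0.681 and 0.871 FPKM after risperidone against 1.33 to 1.69 in saline (-0.50 ± 0.07, limma adjusted p = 0.000341). Cacna2d1 itself differed by -0.03 ± 0.07. Gm37633 within Hecw2 fell by 0.46 on the log2 scale and Gm19445 within Pex5l by 0.35, while these hosts differed by -0.24 and -0.15 and did not pass. Adgrb3, an adhesion receptor gene, held 4 genes that fell (Gm36952, Gm37077, Gm37602 and Gm38198, -0.33 to -0.45) and itself differed by -0.16 ± 0.06 (limma adjusted p = 0.224); none of the 4 was called against set I. Of 21 hosts tested none passed; 14 had a negative difference and their median was -0.03, beside -0.39 for the genes inside them. Whether counting used strand is not given in the sources used here, and such values cannot be told apart from reads of unspliced host RNA. Gm37717 was 6.003 to 7.26 against 8.61 to 10.3 FPKM, Gm15594, annotated as antisense, 1.32 to 1.81 against 2.34 to 3.26, and Gm14636, a processed transcript on chromosome X, 1.76 to 2.30 against 2.45 to 3.73.

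The coding genes that fell included 3 for potassium channel subunits, Kcnj2, Kcnv1 and Kcnh7, grouped here after their values were seen. Potassium channel genes were not a list, so how many were tested or rose was not counted. Kcnj2, the inward rectifier Kir2.1 that holds the resting potential, was 1.33, 1.38, 1.26 and 1.38 FPKM against 2.11 to 2.69 (median 2.33), 0.558 times its saline mean (-0.54 ± 0.07, limma adjusted p = 5.36e-05; -0.49 ± 0.08 against set I, adjusted p = 0.00319). Kcnv1, a modifier subunit of Kv2 channels, was 8.03 to 8.42 against 9.52 to 11.3 FPKM (-0.34 ± 0.06, limma adjusted p = 0.00275); its call against set I (adjusted p = 0.0426) was lost without any 1 risperidone library or set I replicate 1, 3 or 4. Kcnh7, an ERG-type channel chosen after its values were seen, was 15.1 to 15.8 against 17.8 to 20.7 FPKM (-0.29 ± 0.05, limma adjusted p = 0.00406) and was not called against set I (adjusted p = 0.113). Arpp21, a cAMP-regulated phosphoprotein of spiny and cortical neurons, was 83.7, 80.0, 87.9 and 80.2 FPKM against 94.3 to 110 (-0.29 ± 0.05, limma adjusted p = 0.00276); against set I it was not called (adjusted p = 0.10002).

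Fbxw7, the substrate receptor of a ubiquitin ligase that degrades cyclin E and JUN, was 33.5, 34.0, 34.9 and 33.5 FPKM against 39.1 to 43.2 (-0.28 ± 0.05, limma adjusted p = 0.00301). The zinc finger gene Zfp281 was 3.94 to 4.23 against 4.67 to 5.41 FPKM. 1190002N15Rik had 0.619 and 2210418O10Rik 0.589 times their saline means (limma adjusted p = 0.000404 and 0.00296), and 9430020K01Rik fell by 0.30 on the log2 scale. In these 5 genes no risperidone library overlapped the saline libraries, which the rule for naming the leading genes required. Zfp281 was not called against set I (adjusted p = 0.0702). The other 4 were, but Fbxw7 and 9430020K01Rik lost that call without any 1 risperidone library or set I replicate 2, 3 or 4 (9430020K01Rik also replicate 1), 2210418O10Rik without risperidone replicate 2 or 4 and 1190002N15Rik without risperidone replicate 4.

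At the level of single transcripts 77 of 84728 were higher (0.0909%) and 57 lower (0.0673%) against saline, and 25 (0.0295%) and 9 (0.0106%) against set I. For 49 of the 134 the gene as a whole was not called. Among these, a retained-intron transcript of Pxdn, an extracellular matrix peroxidase gene, had the lowest p of the higher ones: 2.30, 1.98, 2.24 and 2.06 FPKM against 0.622 to 1.47 (0.60 ± 0.09, limma adjusted p = 0.00279), and it was also called against set I (adjusted p = 0.0343). Pxdn as a gene differed by 0.37 (adjusted p = 0.0525). Transcripts with retained introns of Trim2, Tmem109 and Ptgds rose by 0.52, 0.96 and 1.05, and an Slc6a8 transcript marked for nonsense-mediated decay by 0.68; Slc6a8 encodes the creatine transporter and Ptgds the prostaglandin D synthase. None of these 4 was called against set I.

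Of the lower transcripts, ENSMUST00000167624 of Glo1, the glyoxalase gene, was 0.296 FPKM in risperidone replicate 2 and near 0 in the other 3 libraries, against 1.499 to 3.13 in saline (-1.52 ± 0.24, limma adjusted p = 0.00327), while Glo1 as a gene differed by -0.15 (adjusted p = 0.508). Cufflinks divides reads among isoforms, and how much of this difference moved to other Glo1 isoforms was not tested. Transcripts of R3hdm1, Cspg5, Lrp1b and Cdh10 fell by 0.39, 0.47, 0.49 and 0.63 on the log2 scale. None of these 5 was called against set I.

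Dclk1 encodes a doublecortin-like kinase, a microtubule-binding protein of neurons, and is the locus the study followed through its isoforms. None of its 15 annotated transcripts passed against either control, and the gene differed by 0.13. The transcript with the highest level, ENSMUST00000198437 (Cpg16, a short kinase form), was 26.9, 30.8, 34.1 and 33.2 FPKM after risperidone, with 24.5 ± 3.26 in saline set I and 29.6 ± 2.67 in set II (difference from saline 0.21 ± 0.12, limma adjusted p = 0.554). The full-length ENSMUST00000054237 was 9.14, 9.94, 7.14 and 10.6 FPKM, between the means of set I (12.1 ± 1.80) and set II (4.67 ± 3.14). The intron-retaining ENSMUST00000198757 was 5.45 to 6.58 FPKM against 4.03 to 6.52. The Carp form ENSMUST00000199585 was 3.64, 0.820, 0.878 and 1.62 FPKM against 0.0139 to 1.87 (0.59 ± 0.28, limma adjusted p = 0.450). For the full-length form the saline sets stood farther from each other than either stood from risperidone.

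**Figure D4:**
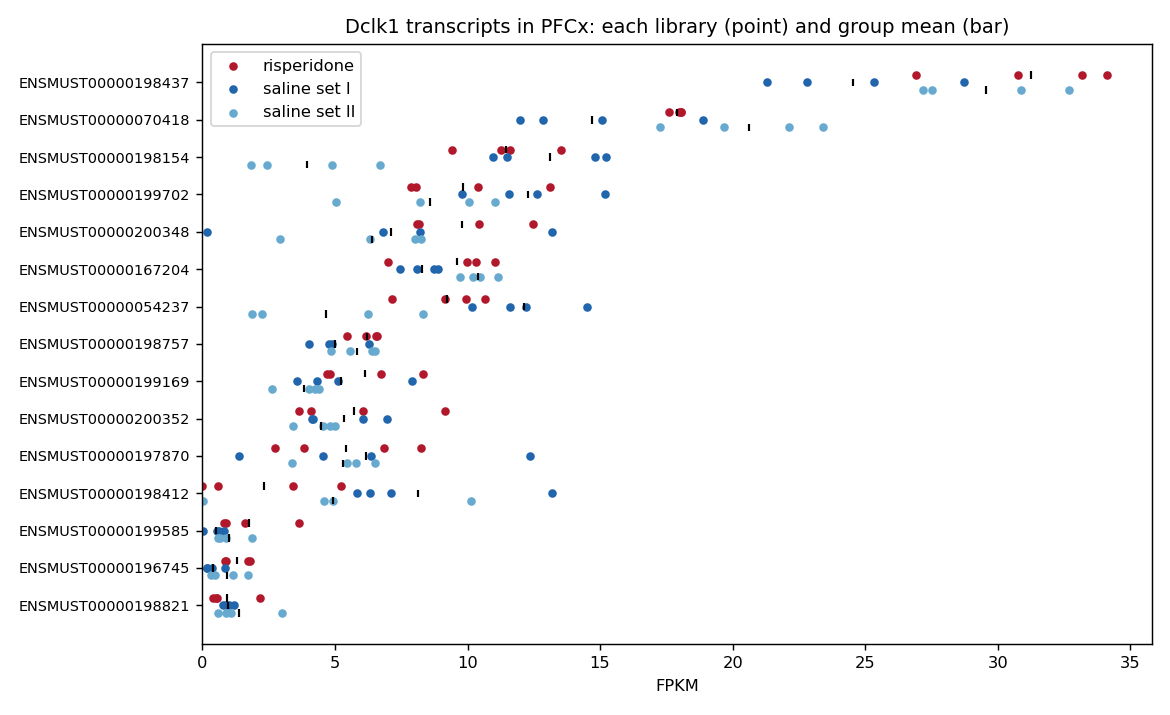
FPKM (horizontal axis) of the 15 annotated Dclk1 transcripts (rows) in each PFCx library of risperidone, saline set I and saline set II; black bars are means of 4 libraries. ENSMUST00000198437 has the highest level, at 31.2 FPKM after risperidone, and no transcript passed the test.

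The nucleus accumbens (NAc) served to ask which PFCx changes differed by region. Each region was compared with its own saline set I, and the difference of the 2 effects was tested over 29058 genes. None passed (0%, limma, lowest adjusted p = 0.228), with 1288 at an unadjusted p under 0.05. A lack of calls does not show that the effects were equal. The NAc risperidone and set I libraries had 85397 to 87827 transcripts above 0, and those of PFCx 109336 to 110800. NAc libraries of saline set II had 109231 to 110063, so the lower count was not shared by all NAc libraries. What this difference in detection did to the comparison was not tested. Of the 60 genes called in PFCx against set I, 55 had the same sign in NAc, beside 55.6% of all genes tested, and 20 were also called there, beside 76 of 29240 (0.26%). The difference was larger in PFCx for 54 of the 60, beside 50.9% of all, and 24 had an unadjusted p under 0.05 for the difference of regions; these 60 were chosen by their values in PFCx. Dusp6 differed from saline by 0.48 ± 0.08 in PFCx and 0.03 ± 0.11 in NAc, and Klf10 by 0.52 ± 0.07 and 0.18 ± 0.09. Fosb had 0.61 ± 0.12 in PFCx and 1.16 ± 0.10 in NAc, and Sgk1 0.48 ± 0.11 and 1.14 ± 0.13. Ddit4, Nfkbia and Nr4a1 were near each other, at 0.91 and 0.96, 0.90 and 0.85, and 0.60 and 0.57.

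**Figure D5:**
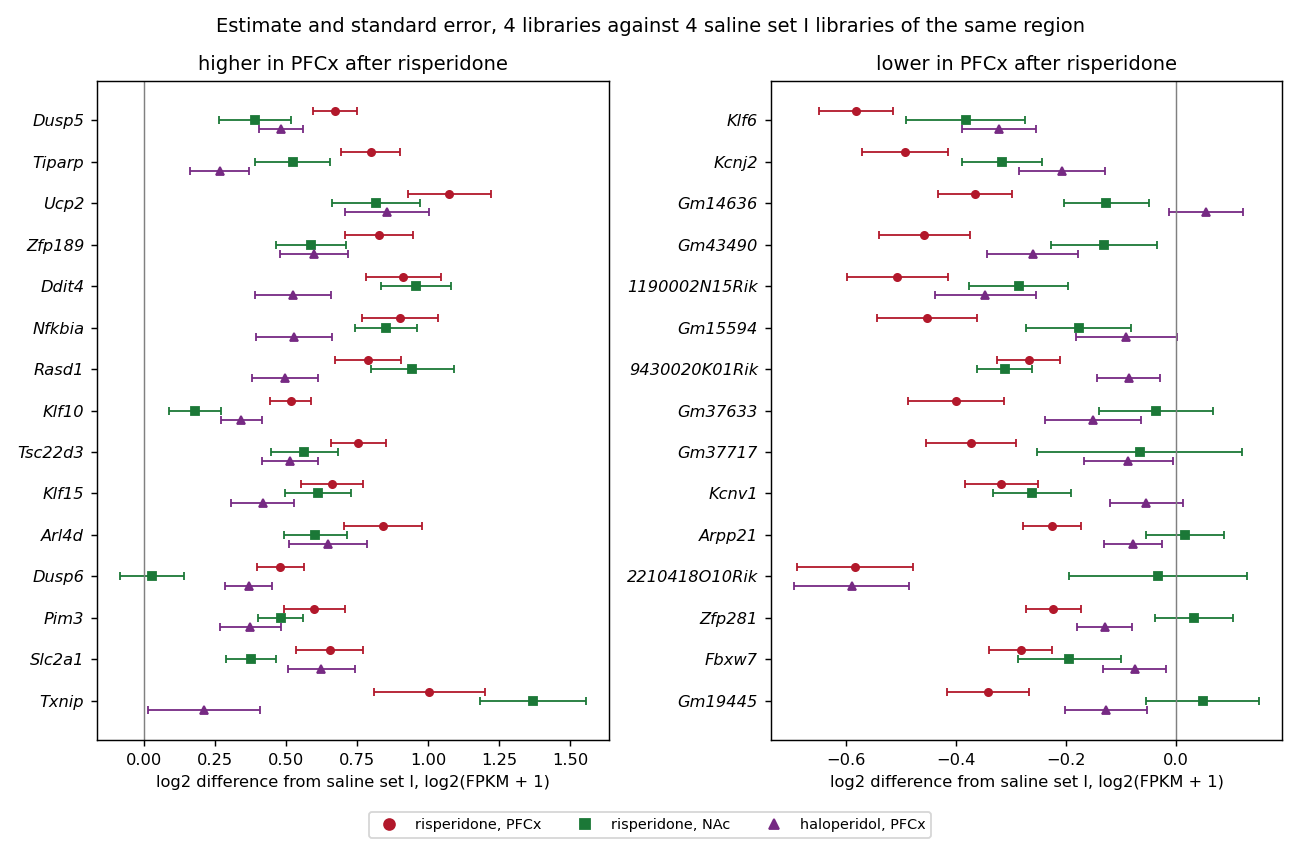
Differences from saline set I of the same region on the log2(FPKM + 1) scale (horizontal axes; estimate and SE, 4 against 4 libraries) for the 15 leading higher and 15 leading lower genes: risperidone in PFCx (circles), risperidone in NAc (squares) and haloperidol in PFCx (triangles). Dusp6 lies at 0.48 in PFCx and 0.03 in NAc, and Tiparp at 0.80 after risperidone and 0.27 after haloperidol; both PFCx comparisons share the set I controls.

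Haloperidol, an antipsychotic with a stronger preference for D2 over serotonin receptors, was given to mice of the same sample set at 1 mg/kg. Compared directly, 2 genes passed (0.00543%), both lower after risperidone; without risperidone replicate 4 there were 2 calls, both higher, and without risperidone replicate 2 or 3 or haloperidol replicate 4 none. The 2 called with all libraries were Gm14636, at 2.01 ± 0.228 FPKM beside 3.03 ± 0.354 (-0.42 ± 0.07), and Gm10309, at 1.24 ± 0.294 beside 2.68 ± 0.343 FPKM (-0.72 ± 0.12; limma adjusted p = 0.0369 for both); 1823 had an unadjusted p under 0.05. The doses differ, at 0.5 and 1 mg/kg, and both drugs were given in the same vehicle. Against the shared set I controls, haloperidol gave 8 called genes and risperidone 60. Median differences from set I of the immediate early, effector, glucocorticoid-responsive and fasting lists were 0.27, 0.25, 0.25 and 0.20 after haloperidol. After risperidone they were 0.23, 0.25, 0.33 and 0.24. Tiparp was 3.98 ± 0.62 FPKM after risperidone and 2.45 ± 0.406 after haloperidol (0.53 ± 0.10, limma adjusted p = 0.173), and Txnip 9.66 ± 3.26 and 5.05 ± 1.43 (0.79 ± 0.20, adjusted p = 0.491). Fos was 8.65 ± 1.69 and 9.28 ± 1.54, Arc 13.4 ± 1.34 and 14.9 ± 1.58, and Slc2a1 14.3 ± 2.201 and 13.98 ± 1.73 FPKM, with differences of -0.10 ± 0.13, -0.15 ± 0.16 and 0.03 ± 0.12. Klf6 was 4.70 ± 0.102 after risperidone and 5.85 ± 0.538 after haloperidol (-0.26 ± 0.07, limma adjusted p = 0.491).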

How the data were processed

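The authors extracted total RNA from dissected PFCx, depleted ribosomal RNA, sequenced it on an Ion Proton, aligned reads to GRCm38 with TopHat2 (2.0.1 in the submitters' processing notes) and Tmap, and estimated transcript levels with Cufflinks (2.2.1). Whether counting used strand is not given in the sources used here. The authors deposited 1 table per library with FPKM, which are not counts, and coverage, a read depth signal used here only to estimate aligned bases (median coverage over FPKM), which limits the precision of low levels.

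FPKM were summed per gene name. Genes or transcripts with a mean of at least 0.1 FPKM over the 32 PFCx libraries were tested on log2(FPKM + 1) with limma 3.58.1 in R 4.3.3, p-values adjusted by Benjamini and Hochberg's method and called under 0.05; fold changes on this scale understate low genes. All PFCx groups entered the fit to share the spread. Named genes were, per direction, the 15 with the lowest p among those called, with mean FPKM of at least 1, a transcript of at least 300 bases and no overlap with saline, plus called list members, target receptors, Dclk1 transcripts and 5 transcripts per direction whose gene was not called. Members and lists were chosen with earlier results of these data known. Exact permutation tests were two-sided. The fit was tested on simulated data. A gene's promoters were searched together. Gene types came from GENCODE vM21. Alternatives changed the pseudocount, filter, scaling, variance model, saline set, library quality status, pairing and each library in turn.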

Additional observations from a re-analysis of the deposited data

Results flagged for a closer look

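In 7 of 165 groups of 4 libraries of the named genes, 1 library stood far from the other three by Dixon's criterion; chance gives about 1 in 20. After risperidone, Per1 in replicate 3 was 7.92 FPKM (others 11.7 to 12.4), Dusp6 in replicate 2 was 12.5 (10.03 to 10.2) and Sik1 in replicate 4 was 2.25 (1.78 to 1.81). In saline set I, replicate 3 had 2.36 FPKM of Klf15 (others 3.33 to 3.49) and 1.02 of Arl4d (1.43 to 1.51), and replicate 1 had 39.9 of Fbxw7 (41.8 to 42.1). In saline set II, replicate 4 had 0.978 FPKM of Dusp5 (others 0.785 to 0.806).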

How the results depend on the processing

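The count of genes called against saline, 189, was 119 with a pseudocount of 0.1, 77 with the 12 libraries alone in the fit and 4594 against saline set II alone, and ranged from 99 to 564 when 1 library was left out (99 to 115 without a risperidone library; 564, 498 and 555 without set I replicate 2, 3 or 4). Against set I, 60 became 8 with the 8 libraries alone, 46 without set II in the fit (chosen after seeing the data) and 31 to 49 with 1 library left out, 31, 35 and 33 without risperidone replicates 2, 3 and 4 and 34 without set I replicate 3. Transcripts against saline, 134, were 56, 33 and 5418 under the first 3 settings and 62 to 175 with 1 left out (84, 63, 88 and 62 without risperidone 1 to 4, 85 without set II replicate 3); against set I, 34 became 8 with a pseudocount of 0.1, 0 with the 8 libraries alone (limma; 4859 at an unadjusted p under 0.05) and 7 to 30. The region difference gave 0 to 1, the 1 without PFCx risperidone replicate 3 or set I replicate 4. Against haloperidol, 2 became 0 with a pseudocount of 0.1, 75th percentile scaling or a mean-variance trend, 1 without a filter, and 0 to 4 with 1 left out (1, 3 and 4 without haloperidol replicate 1, 2 and 3), where the 2 calls without risperidone replicate 4 were higher and all others lower. The cause was not tested. Other settings stayed within 1.5 times. Over 55 named genes no direction reversed, 246 of the recomputed calls were lost and 18 gained; Arc, Dusp5, Klf6, Rasd1 and Ucp2 were called against set I under all 16 alternatives.

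Same-numbered risperidone and set I libraries correlated at 0.0174 to 0.469 in their deviations from group means, and 2 of 4 risperidone libraries correlated best with their own number, so these numbers were not taken to pair samples. Against haloperidol the range was 0.0893 to 0.447 and 4 of 4 correlated best with their own number, a hint of a shared factor from the data; the labels do not say what the numbers mark. With the replicate block, 269 genes were called against saline and 74 against set I, 133 and 35 transcripts, 0 genes for the region difference and 1 against haloperidol.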
